A study of Mus musculus with 2 samples.

Results

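The cytosolic ribosomal protein genes and Rpl3l, the paralog of Rpl3 known from striated muscle, were examined in total RNA from mouse heart. Genes were taken as members when at least 1 of their transcripts was annotated as protein-coding and their symbol had the form Rpl or Rps plus a number and paralog suffix, Rplp0, Rplp1, Rplp2 or Rpsa. This gave 84 of 55536 mouse genes, of which 32 encode the small subunit, 49 the large subunit and 3 the stalk of the large subunit. Another 6 symbols fitted the pattern but had no protein-coding transcript (Rps3a2, Rps3a3, Rps4l, Rps12l1, Rpl6l and Rpl32l) and were not members.

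The series holds a single group, heart tissue from adult male B6CASTF1/J mice, the F1 cross of C57BL/6J with the wild-derived CAST strain. The animals were 8 to 10 months old and came from The Jackson Laboratory, and the labels name no other allele and no treatment. Each of the 2 libraries started from 300 ng of RNA with ribosomal RNA reduced and ERCC spike-ins added, and the labels call the animals 2 and 4. The labels also give both libraries a shared donor entry, so the spread over them is taken as that between 2 animals as far as the labels go. Expected counts on mouse genes came to 42.05 M in replicate 1 and 39.98 M in replicate 2. All 6 heart muscle markers were present, with a median of 4226 TPM (a level per transcript length, scaled to a fixed sum per library), against 1.92 TPM for 8 fast skeletal muscle markers. Levels come from the authors' tables in the column layout that RSEM writes unless stated otherwise. Values are given as replicate 1 and replicate 2, or as mean ± SD over the libraries (n = 2). With 2 libraries of 1 group the smallest two-sided p of an exact sign-flip test is 0.5, so none is printed.

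Every cytosolic ribosome carries the ribosomal proteins in fixed proportion, and most are made from a single gene each. Their mRNAs are known for a 5′ terminal oligopyrimidine, or TOP, a run of C and T that starts with C at the first base and places their translation under control of mTOR through LARP1. A few have paralogs with restricted expression, of which Rpl3l, described in heart and skeletal muscle, stands in for Rpl3, a protein at the peptidyl transferase centre. Most also have many processed pseudogenes, intronless copies of the mRNA, which compete with the parent gene for sequence reads.

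Rpl3l (ENSMUSG00000002500.15) lies at chr17:24727820-24736143 on the plus strand of mm10 and Rpl3 (ENSMUSG00000060036.14) at chr15:80077791-80091868 on the minus strand. The leading transcript of each has 10 exons. Their coding sequences were identical at 74.4% of 1205 aligned bases and differed at 309. The first coding bases, 1 to 90 from the start codon in GENCODE M21 transcripts, are shown to let the pair be compared, with the 21 differing bases in capitals.
Rpl3: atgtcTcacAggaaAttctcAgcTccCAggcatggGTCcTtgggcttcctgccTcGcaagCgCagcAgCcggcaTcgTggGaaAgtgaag
Rpl3l: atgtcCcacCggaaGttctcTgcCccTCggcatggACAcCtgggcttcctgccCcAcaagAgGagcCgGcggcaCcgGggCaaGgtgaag
The differences are spread over the whole window, and the coding sequences share no run of 31 bases. Rpl3l was the only member without a run of 31 bases (31-mer) in any other gene. In Rpl3, by contrast, 87.6% of the 31-mers of the leading transcript occurred in other genes.

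Rpl3l was the more abundant mRNA of the pair in both hearts. It was at 136 and 154 TPM (5826 and 6270 expected counts), and Rpl3 at 43.5 and 41.8 TPM (1472 and 1458 counts). The ranges did not overlap. Nor did the uncertainty intervals the authors deposited for each TPM, 128 to 138 and 146 to 157 for Rpl3l against 38.7 to 47.3 and 37.4 to 45.8 for Rpl3. The level of Rpl3l was thus 3.39-fold that of Rpl3, a log2 ratio of 1.64 in replicate 1 and 1.88 in replicate 2 (1.76 ± 0.174, n = 2), and Rpl3l held 77.2 ± 2.12% of the pair's TPM. Of the pair's counts, Rpl3l had 79.8% (95% exact Clopper-Pearson interval 78.9 to 80.7) and 81.1% (80.2 to 82.0). These intervals cover counting error only, here and below. Among nuclear protein-coding genes ordered by mean TPM, Rpl3l stood at place 367 and Rpl3 at place 1220. In bulk tissue fewer cells of a type and less RNA per cell cannot be told apart, so neither gene's level is a level per muscle cell.

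The size of the ratio depended on Rpl3-ps1, a pseudogene with 94.7% of its 31-mers in Rpl3. It was at 36.0 and 32.3 TPM, close to the level of Rpl3 itself. With its TPM and that of the other Rpl3 pseudogenes added to Rpl3, Rpl3l was still higher in both libraries, by 1.88-fold (log2 0.91 ± 0.205). The authors' other quantification, deposited in the column layout that kallisto writes, gave a log2 ratio of 1.82 for the genes alone and 1.05 with the copies added. All 3 transcripts annotated for Rpl3l are protein-coding, and Rpl3l-202 held 94.6 ± 0.315% of the gene's TPM (85.4% in the kallisto-layout tables). Rpl3 was led by Rpl3-201 with 70.6 ± 6.47%, and its retained-intron and decay transcripts held 2.90% together. Rpl3 holds the small nucleolar RNA genes Gm22077 and Snord83b within its bounds on the same strand, and Rpl3l holds none. Such genes lie within 30 members, 58 in all.

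**Figure D1:**
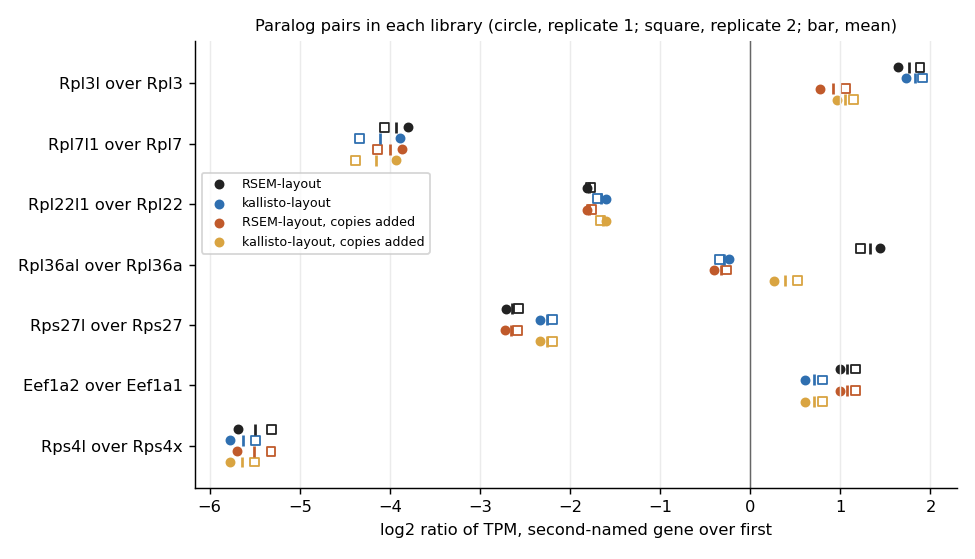
Log2 ratio of TPM of each paralog over its partner (horizontal axis) for the 5 pairs of members with counts on both genes and for 2 further pairs. Values are for replicate 1 (circles), replicate 2 (squares) and their mean (bars), by quantification and with sequence copies added. Copies were sought for members only, so none were added to Eef1a1, Eef1a2 or Rps4l. Rpl3l lies above 0 in all 4 settings, from 0.77 to 1.91 over the libraries, while Rpl36al lies on both sides of 0.

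In the other 6 pairs the paralog was the lower gene in both libraries for 5. Rpl10l and Rpl39l, which are known from testis, had 0 counts in either library. Their partners were at 42.1 and 43.1 TPM for Rpl10, a protein near the tRNA sites, and at 88.5 and 81.6 TPM for Rpl39, a small protein of the exit tunnel. Against the level that 3 counts per library would give, Rpl10 was at least 450.5-fold and 435.2-fold higher than Rpl10l, and Rpl39 at least 592.6-fold and 515.7-fold higher than Rpl39l. These bounds cover counting error only. The deposited TPM intervals of Rpl39l reached up to 0.248 and 0.263 TPM, above the level of 3 counts (0.149 and 0.158 TPM). Rpl7l1, the paralog of Rpl7, was at 20.4 and 16.3 TPM against 284 and 273 TPM, a log2 ratio of -3.93 ± 0.188 (-2.59 in counts not divided by length and -3.19 over protein-coding transcripts). Rps27l was at 60.0 and 61.7 TPM against 392 and 367 TPM for Rps27, a ratio of -2.64 ± 0.0944 (-1.91 in counts). In each of these 4 pairs the gene and its paralog did not overlap in either quantification.

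Rpl22l1 was at 26.4 and 25.8 TPM and Rpl22 at 92.7 and 88.0 TPM, a log2 ratio of -1.79 ± 0.0283 (-2.48 in counts). What Rpl22l1 produced was less clear than its gene level. In the RSEM-layout transcript tables the processed transcript Rpl22l1-209 held 23.3 and 20.8 TPM and the coding Rpl22l1-206 1.10 and 1.98 TPM. Over protein-coding transcripts alone the log2 ratio to Rpl22 was therefore -5.92. In the kallisto-layout tables the coding Rpl22l1-201 led instead with 15.2 and 17.4 TPM, and Rpl22l1-209 was at 9.22 and 0.000383 TPM. The 2 quantifications thus placed the same gene on different transcripts.

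Rpl36al was the exception among the pairs, and the direction did not hold. Rpl36al was at 67.6 and 69.1 TPM and Rpl36a at 25 and 29.7 TPM, a log2 ratio of 1.33 ± 0.154. In the kallisto-layout tables the ratio was -0.29, and it was -0.48 with pseudogenes added to the gene whose symbol they carry. The pseudogene Rpl36a-ps2, all of whose 31-mers occur in Rpl36a, was at 66.8 and 59.0 TPM, above Rpl36a itself. Rpl36a-ps3 was added to Rpl36a by its name, although it shares 89.3% of its 31-mers with Rpl36al. Its level was 4.04 ± 2.32 TPM, and 44.7 ± 21.7 TPM in the kallisto-layout tables. With sequence copies of both genes added, the ratio was -0.33 in the RSEM-layout and 0.39 in the kallisto-layout tables, so no order of the 2 genes can be given.

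Outside the members, the muscle isoform of elongation factor 1 alpha showed the same order as Rpl3l. Eef1a2 was at 577 and 598 TPM and the general form Eef1a1 at 290.0 and 267 TPM, a log2 ratio of 1.08 ± 0.121 (0.70 in the kallisto-layout tables). Pseudogenes and copies were not sought for these genes, so unlike for Rpl3l this order was not checked with them added. Rps4l, which lacks a protein-coding transcript, was at 4.11 and 5.33 TPM against 212 TPM in both libraries for Rps4x, a log2 ratio of -5.50 ± 0.266.

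As a group the members were abundant mRNAs. Their median level was 154 ± 0.255 TPM (167 in the kallisto-layout tables), against 8.25 TPM for the 10749 nuclear protein-coding genes at 1 TPM or more in both libraries. Of 84 members, 82 were at 1 TPM or more in both libraries, 81 at 10 TPM or more and 58 at 100 TPM or more. The members not reaching 1 TPM were Rpl10l and Rpl39l. Together the members held 1.36% of all TPM and 3.76 ± 0.0620% of the TPM of nuclear protein-coding genes.

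**Figure D2:**
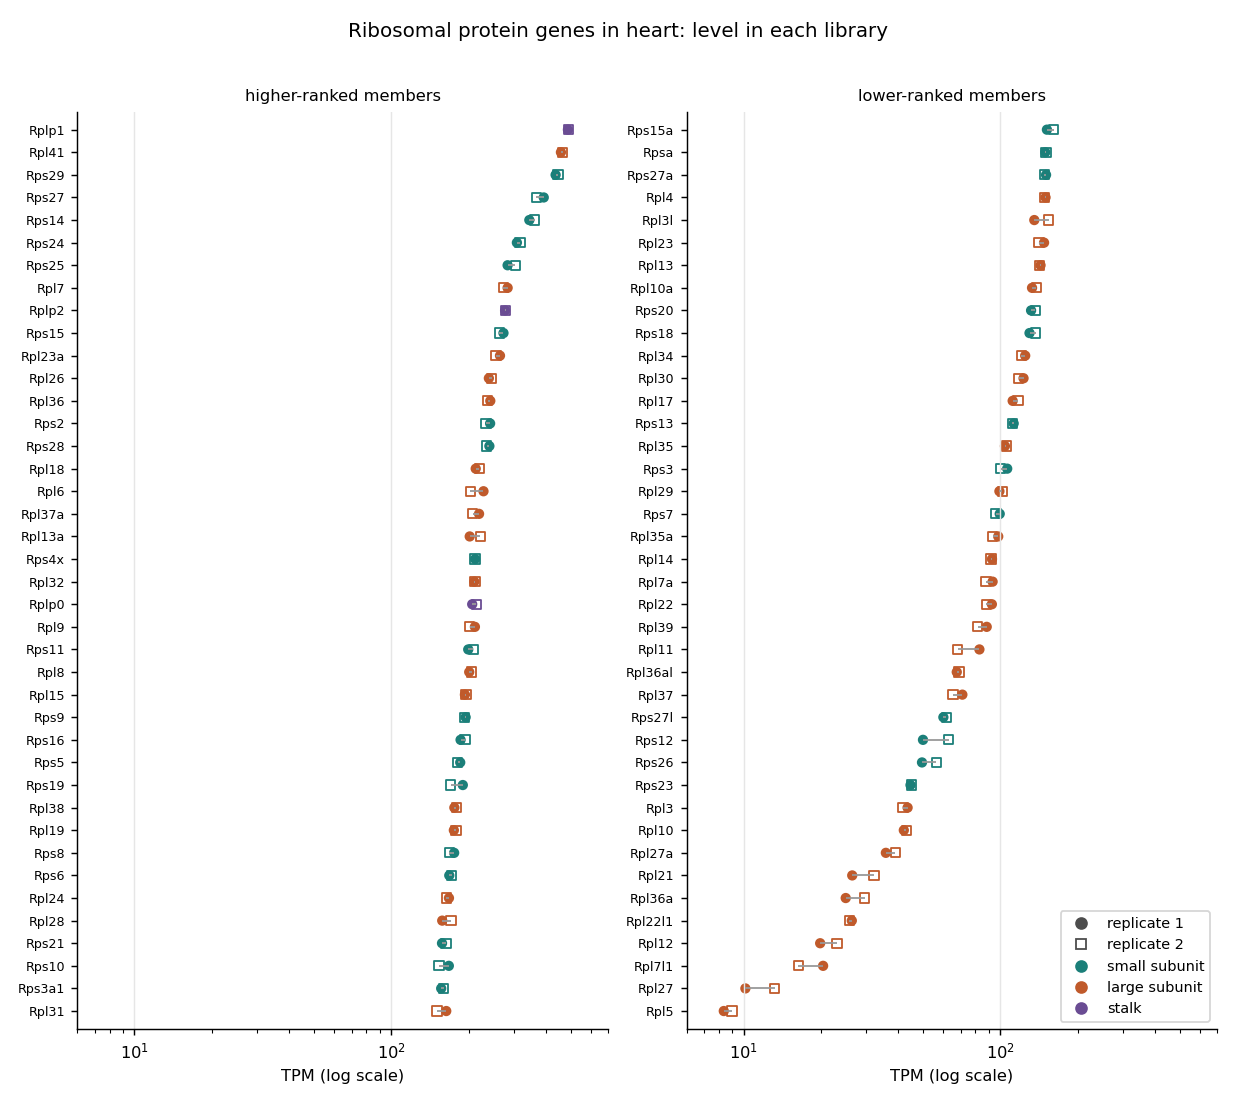
TPM on a log scale (horizontal axis) of the members with counts, apart from 2 not reported here, in replicate 1 (filled circles) and replicate 2 (open squares), ordered by mean and coloured by subunit. The levels fall from 487 TPM for Rplp1 to 8.70 TPM for Rpl5, and Rpl27, Rps12 and Rpl11 are among those with visible gaps between the libraries.

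The stalk proteins, which recruit the elongation factors, had a median of 278 ± 1.22 TPM. Rplp1 was the highest member at 487 and 488 TPM, Rplp2 was at 277 and 279 TPM, and Rplp0, the base of the stalk, at 206 and 214 TPM. The kallisto-layout tables gave 324 TPM for Rplp1, which then stood at place 8 of the members. There Rplp1 and Rplp2, which pair on the stalk, were at 324 and 286 TPM. Rpl41, a very small basic protein, took the first place in those tables with 652 TPM, from 457 and 465 TPM in the RSEM-layout tables.

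The small-subunit genes had a median of 170.5 ± 1.93 TPM and the large-subunit genes without the stalk 123 ± 3.07 TPM. With the stalk counted in the large subunit, the log2 ratio of small over large was 0.32 ± 0.0570 (0.22 in the kallisto-layout tables). This ratio is for the genes alone and was not computed with sequence copies, described below, added. Small-subunit proteins made up 6 of the 10 highest members. Rps29 was at 436 and 445 TPM and Rps27 at 392 and 367 TPM, both zinc-binding proteins. Rps14, a protein of the platform, was at 345 and 362 TPM. They were followed by Rps24 (308 and 317 TPM) and Rps25 (284 and 303 TPM). Rps6, the phosphorylated target of S6 kinase, was near the small-subunit median at 168 and 172 TPM. Rpsa, also known as the laminin receptor, was at 149.6 and 151 TPM. Rps27a, made as a fusion with ubiquitin, was at 151 and 148 TPM.

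Among large-subunit genes, Rpl7 was also in the 10 highest members, at 284 and 273 TPM. The lowest members at 1 TPM or more were all of the large subunit. Rpl5, which binds the 5S ribosomal RNA, was at 8.38 and 9.02 TPM, and Rpl27 at 10.2 and 13.2 TPM. Rpl12, next to the stalk base, was at 19.9 and 23.1 TPM, in the range of the paralogs Rpl7l1 and Rpl22l1. The median absolute deviation of log2 TPM was 0.589 ± 0.0173 over the 82 genes (0.448 in the kallisto-layout tables). Rpl5, Rpl27 and Rpl12 have sequence copies at higher levels than their own, given below, so their low places may not be levels of the mRNA. The order was nearly the same in both libraries, with a Spearman rho of 0.995 across the 82 genes. Across the 2 quantifications of the same libraries it was 0.831. Coding length and TPM had a rho of -0.116. These 3 are descriptions across genes, which are not independent replicates.

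Several of the lowest members had genes of near-identical sequence at higher levels than their own. Beside each member, other genes outside the rule with at least 50% of a transcript's 31-mers in that member were counted as its copies, which gave 324 copies for 72 members. This limit also takes in genes that overlap a member, such as Snora7a in Rpl32, so not every entry is a duplicated sequence. By name alone, 298 genes carry the symbol of a member with a pseudogene suffix, for 60 members. Named pseudogenes held 13.4 ± 0.339% of the TPM of members and pseudogenes together (6.24% in the kallisto-layout tables). All copies held 24.7 ± 0.235% (15.1%). In 59 of 84 members over 50% of the 31-mers of the leading transcript occurred in other genes, with a median of 65.4%.

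The case of Rpl5 shows the size of this. Gm15500, with 100% of its 31-mers in Rpl5, was at 153 and 149 TPM, and Rpl5 with its copies came to 159 TPM. Rpl5 alone was at 47.9 TPM in the kallisto-layout tables and at 174 TPM there with copies. Rpl27 had the largest gap between the quantifications, with 11.7 ± 2.17 against 141 ± 0.371 TPM. Its copies Gm11518 and Rpl27-ps3 both stood at 92.5 and 93.4 TPM in the RSEM-layout tables and at 3.37 TPM in the others. With copies, Rpl27 was at 198 and 148 TPM, and its place moved from 81 to 49 of the members.

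Rpl10 was at 42.6 ± 0.707 against 219 ± 18.3 TPM, and its pseudogene Rpl10-ps3 at 191 ± 9.21 against 0 TPM. Rps23, a protein of the decoding site, was at 44.8 ± 0.219 against 174 TPM, with Rps23-ps1 at 252 ± 14.1 against 63.8 TPM. Rpl21 was at 29.4 ± 4.03 against 95.7 TPM. These genes were low in the RSEM-layout tables, where their copies were high. The summed level of gene and copies was much closer, with 234 and 220.0 TPM for Rpl10 and 298 and 238 TPM for Rps23. Rpl12 was low in both quantifications (21.5 and 29.9 TPM), with its copy Gm10275, 100% of whose 31-mers occur in Rpl12, at 147 and 163 TPM.

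The other parents with the most TPM on named pseudogenes were Rps2, Rpl28 and Rps26. Rps2-ps13 was at 228 ± 0.75 TPM beside 238 ± 6.25 TPM for Rps2, and 203 TPM in the kallisto-layout tables. Rpl28-ps1 was at 197 ± 2.12 TPM (147) beside 164 ± 9.24 TPM for Rpl28. Rps26-ps1 was at 110.1 ± 5.58 TPM beside 52.9 ± 4.73 TPM for Rps26, and at 0 TPM in the kallisto-layout tables. Expression of a pseudogene and misplaced reads of its parent cannot be told apart in these tables. By gene alone, 64 of the 82 members with counts were within 1.5-fold in the 2 quantifications, 16 were higher in the kallisto-layout tables and 2 lower. With copies added to each, 79 were within 1.5-fold. The exceptions were Rpl14, 1.67-fold higher in the kallisto-layout tables, and Rpl36 and Rps19, at 0.559 and 0.591 of the RSEM-layout level. By gene alone Rps19 was within the limit, at 0.727, so adding copies widened its gap. Its copy Gm45660, with 53.7% of its 31-mers in Rps19, was at 76.7 TPM and at 0 TPM in the kallisto-layout tables.

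**Figure D3:**
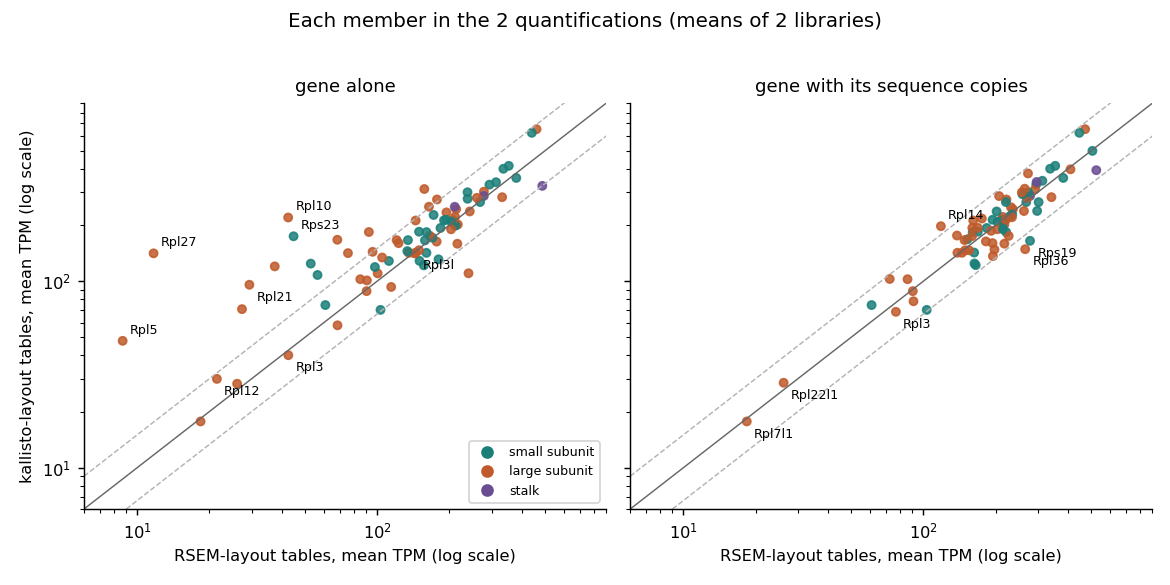
Mean TPM over 2 libraries of each member with counts in the RSEM-layout (horizontal axis) and kallisto-layout tables (vertical axis), both on log scales, for the gene alone (left) and with its sequence copies (right). The solid line marks equal values and the dashed lines 1.5-fold; 64 of 82 genes lie between them on the left and 79 on the right.

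**Figure D4:**
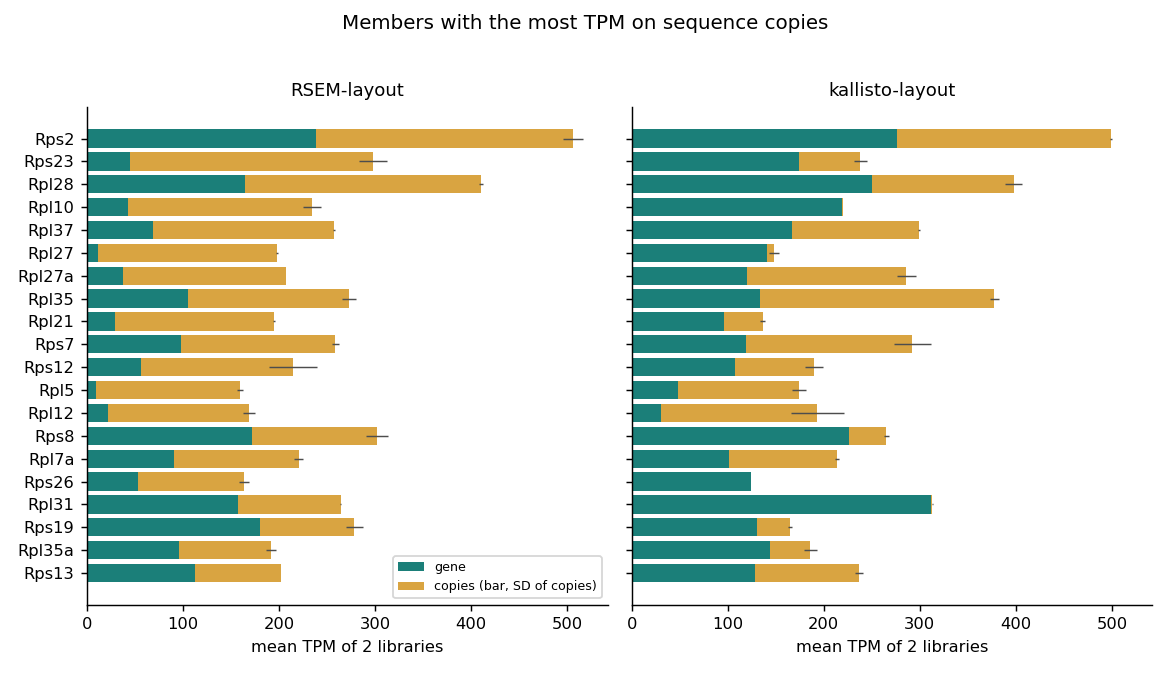
Mean TPM over 2 libraries of the gene (dark) and of its sequence copies (light, bar for the SD of the copies) for the 20 members with the most TPM on copies in the RSEM-layout tables. Rpl10, Rpl27 and Rps26 have most of their TPM on copies in the left panel and almost none in the right panel.

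Part of the members' TPM lay on transcripts not annotated as protein-coding. The share was 16.1 ± 0.320% (24.5% in the kallisto-layout tables), with 7.61 ± 0.158% on retained introns, 5.62 ± 0.244% on processed transcripts and 2.91 ± 0.0813% on transcripts marked for nonsense-mediated decay. In the RSEM-layout tables it was largest in Rps16, Rps20 and Rpl35. Rps16 had 115 and 122 TPM on the retained-intron transcript Rps16-203, which is 518 bases long, against 1.70 and 1.56 TPM on the coding Rps16-201, which is 1109 bases long. Rps20 had 90.9 and 88.5 TPM on Rps20-201 and 2.51 and 2.08 TPM on its coding transcript, annotated at 3706 bases. Rpl35 had 99.97 and 102 TPM on the processed transcript Rpl35-203 and 3.97 and 3.79 TPM on the coding Rpl35-201. In all 3 genes the coding transcript is the longest of the annotated models named here, and the shares of 99.1 ± 0.0763%, 98.3% and 96.3% are those of the annotation's classes rather than a measure of unspliced RNA. In the kallisto-layout tables Rps16-201 was at 34.5 and 27.5 TPM and the share for Rps16 was 85.4%. The highest shares there were those of Rpl37 (99.92%), Rps20 (99.3%), Rps13 (98.8%) and Rpl35 (98.3%).

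The 2 hearts were compared in these genes. By a rule of at least 200 summed counts, a 2-fold difference after TMM scaling and an exact counting interval (error rate 0.001) that excludes equality, 0 of 82 members were called, beside 118 of 10960 genes tested (1.08%). With a limit of 0.32 on the log2 scale in place of 2-fold, 0 of 82 members were again called, beside 934 genes (8.52%). Over the members, replicate 2 differed from replicate 1 by a median of -0.03 on the log2 scale, and over all genes tested by 0.01. The median absolute log2 ratio was 0.0635 for members, 0.107 for all genes tested and 0.0832 for the 6473 genes with at least 1000 summed counts. Within 0.2 of equality on the log2 scale lay 76 of the 82 members (92.7%) and 73.9% of all genes tested. At a share of 1.08%, a count of 0 among 82 genes says little about the members. The shares are over all genes tested, from 200 summed counts up, and none was taken over genes of like counts.

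**Figure D5:**
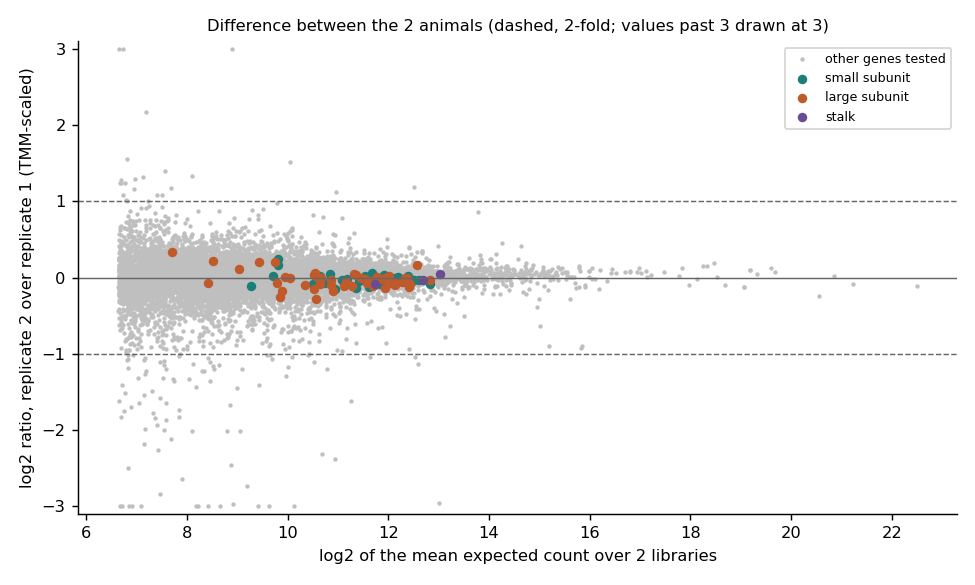
Log2 ratio of replicate 2 over replicate 1 after TMM scaling (vertical axis) against the log2 of the mean expected count (horizontal axis) for members, coloured by subunit, and other genes tested (grey). All 82 members lie between -0.29 and 0.34, inside the dashed 2-fold lines. Of 10960 genes tested, 118 pass the call, which requires a ratio on or beyond these lines.

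More members were lower than higher in replicate 2, 57 against 25, and the split moved with the scaling. It was 61 against 21 with DESeq2 size factors, 46 against 36 with library totals and 72 against 10 with ERCC totals. The share of members that were lower was 69.5%, 74.4%, 56.1% and 87.8% in that order of scalings, beside 46.1%, 49.9%, 40.99% and 59.7% of all genes tested. A scaling shifts every gene by the same amount, so the members' median less that of all genes tested stays at -0.0437 on the log2 scale. With TMM scaling it was -0.0351 at a minimum of 10 summed counts and -0.0521 with no minimum. In the kallisto-layout tables it was -0.0552. The summed TPM of 3 red blood cell markers (Hbb-bs, Hba-a1 and Alas2) was 8146 in replicate 1 and 4416 in replicate 2, and its part in the members' split was not tested.

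The largest ratio was that of Rpl27, 0.34 on the log2 scale (counting interval -0.13 to 0.82), from 188 and 229 counts. Rpl11, a partner of Rpl5 and a regulator of Mdm2, followed at -0.29 (-0.46 to -0.11), from 82.9 and 68.2 TPM. Rpl7l1 was at -0.26 (-0.48 to -0.03). Rps12 (0.24, 49.97 and 62.9 TPM) and Rpl36a (0.22) completed the 5 largest. The kallisto-layout tables gave -0.20 for Rpl11 and -0.30 for Rpl7l1, but 0.06 for Rpl27, -0.08 for Rps12 and -0.07 for Rpl36a. The direction for the last 2 genes was thus not the same in both quantifications. Rpl3l was higher in replicate 2 by 0.16 (0.07 to 0.25) and Rpl3 by 0.04 (-0.14 to 0.22). The 6 heart muscle markers had a median log2 ratio of 0.08.

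The TOP sequence was read from RefSeq promoter windows of GRCm38.p6, the assembly also called mm10, which matched 64 of the 84 members by symbol. Windows of 30 bases around the annotated start, from 10 bases before it to 20 bases from it on, are shown for members with a clear TOP and for paralogs, 5′ to 3′ on the gene's strand, with the longest pyrimidine run beginning with C in capitals. The annotated start is base 11 of each line.
Rps6, chr4:86857348-86857377 (-): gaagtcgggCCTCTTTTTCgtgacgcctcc
Rpl15, chr14:18270967-18270996 (-): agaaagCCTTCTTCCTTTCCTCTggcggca
Rps10, chr17:27635225-27635254 (-): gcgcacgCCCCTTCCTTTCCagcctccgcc
Rpl22l1, chr3:28805498-28805527 (+): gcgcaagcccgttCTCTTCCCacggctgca
Rpl7l1, chr17:46782637-46782666 (-): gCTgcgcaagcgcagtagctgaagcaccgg
Rpl3l, chr17:24727816-24727845 (+): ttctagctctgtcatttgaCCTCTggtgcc
In Rps6, Rpl15 and Rps10, chosen for a clear TOP, the run crosses the start, and in the paralogs shown it does not. Where a gene has several annotated starts, each count below took the largest value over all of them. On the gene's strand, at least 5 pyrimidines beginning with a C at a start were present in 13 of 64 members (20.3%). The same held for 434 of 16455 other protein-coding genes (2.64%). Counted from 30 bases before to 50 bases after the start, a run of 8 or more pyrimidines beginning with C was present in 50 of 64 members (78.1%) and in 26.1% of the other genes. The run at the start was present in 0 of the 7 second-named paralogs, and the run of 8 or more in the wider window in 5 of 7 (71.4%). Of the 57 other members, 13 (22.8%) had the run at the start and 45 (78.9%) the run of 8 or more. At a share of 22.8%, a count of 0 among 7 genes says little about the paralogs. Rpl3 had no promoter window, so its start cannot be set beside that of Rpl3l. These are matches of letters in a window around annotated starts, and starts used in heart were not measured.

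Genes around the ribosomal proteins were read in groups. Of the ribosomal proteins that the symbol rule leaves out, Fau was at 183 and 188 TPM and Rack1, the scaffold on the small subunit, at 149 and 143 TPM, both in the range of the members. The median of 8 elongation factor genes was 133 ± 4.05 TPM, and the highest were Eef1a2, Eef2 (384 and 392 TPM) and Eef1a1, with the kinase Eef2k lowest at 9.96 and 13.1 TPM. The 12 other TOP mRNAs had a median of 47.9 ± 0.70 TPM. They ran from Tpt1 at 1009 and 994 TPM, Vim at 101 and 77.5 TPM and Eif3h at 68.3 and 68.4 TPM down to Nap1l1 at 20.7 and 20.4 TPM.

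The mTOR and LARP1 group had a median of 21.4 ± 0.990 TPM, with 14 of 15 genes at 1 TPM or more in both libraries. Akt1 was at 56.0 and 65.7 TPM, Tsc2 at 46.9 and 47.5 TPM and the translation repressor Eif4ebp1 at 32.4 and 38.7 TPM, with Eif4ebp3 lowest at 0.60 and 0.27 TPM. The 26 ribosome biogenesis genes had a median of 8.47 ± 0.0566 TPM, of which 25 reached 1 TPM in both. Nucleolin (Ncl) was at 38.8 TPM in each library, Eif6 at 18.6 and 25.7 TPM and Sbds, which releases Eif6, at 18.9 and 18 TPM, while Myc was at 1.44 and 0.640 TPM.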

How the data were processed

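Total RNA of 2 hearts was sequenced, 1 library each. Gene and transcript tables of expected counts and TPM, with intervals of TPM whose level is not given in the sources used here, were deposited in the column layout of RSEM, per the file headers. Per the file headers, further transcript tables of estimated counts and TPM have the layout of kallisto. They were summed per gene. All use mm10 and GENCODE M21, per the listings deposited with the libraries. Aligner and tool versions were not given in the sources used here. RSEM-layout tables were the main source. TPM is divided by length and has a fixed sum, so abundant RNAs lower all others.

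Counts were rounded and scaled by TMM (edgeR 4.0.16, R 4.3.3), with DESeq2 1.42.0 size factors as an alternative. Other work used Python 3.11.15, pandas 2.3.3, scipy 1.17.1 and Biopython 1.88 for coding alignments. On simulated counts for these libraries (10929 to 10946 genes tested), the 2-fold rule called 48% of genes changed 2-fold and 95% of those changed 3-fold. On the same simulated counts, the rule with the lower limit of 0.32 (log2) called 10.8% to 11.6% of unchanged genes. That is above the 8.52% of all genes tested that it called in the data, so these percentages hold for the simulated counts only. Whether those counts vary as the counts of the hearts do was not tested. Members and lists were chosen with earlier results of these data known. Genes were named by rule: paralog pairs, the 10 highest and 5 lowest members, those under 1 TPM, the 5 that differed most between animals and between quantifications, the 5 parents with the most pseudogene TPM, the 3 with the largest share on other transcripts, the 3 highest and the lowest of each other list, and the stalk proteins, Rpsa, Rps6 and Rps27a. Rpl14, Rpl36, Rps19, Rpl37, Rps13 and single copies were chosen after their values were seen. Some genes that the rule names are not reported here. Sequences are from GENCODE M21 transcripts and RefSeq promoter windows. Proteins were not analysed here.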

Additional observations from a re-analysis of the deposited data

How the results depend on the processing

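The median level of the members, 154 TPM, was 167 in the kallisto-layout tables, 121 over protein-coding transcripts only, 149.6 with counts divided by full gene length, 425 when rescaled over nuclear protein-coding genes, 157 over members at 1 TPM or more, 163.5 without the paralogs and 211 with copies added. Adding copies was an alternative chosen after seeing the data. With 1 library left out it ranged from 153.7 to 154. Rpl3l over Rpl3, 1.76 on the log2 scale, was 2.04 in expected counts not divided by length, 0.91 with named pseudogenes added and 0.91 with copies added, and 1.05 with copies in the kallisto-layout tables. It ranged from 1.64 to 1.88 with 1 library left out and was above 0 in every setting run. Rpl36al over Rpl36a, 1.33, turned to -0.29 in the kallisto-layout tables, -0.48 with named pseudogenes and -0.33 with copies. The cause was not tested. Small over large subunit, 0.32, was 0.22 in the kallisto-layout tables, 0.52 over protein-coding transcripts only and 0.23 without the paralogs. It was not computed with copies added. The share on named pseudogenes, 13.4%, was 6.24% in the kallisto-layout tables and 11.2% in counts. The share on other transcripts, 16.1%, was 24.5% and 13.6%. The median absolute deviation, 0.589, was 0.448 in the kallisto-layout tables and 0.563 with full gene length. All genes called between the animals, 118, became 470 with a minimum of 10 summed counts, 470 with no minimum and 934 with a limit of 0.32 on the log2 scale, and 111 to 120 under other scalings. The members called were 0 in each of these settings. No paired analysis was possible because the series has 1 group. With 2 libraries, differences between animals have no replicate check.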
